A study of Mus musculus with 2 samples.

Results

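The cells described here are CD8 T cells from mouse brain tumours in which no transcript of Pdcd1, the gene of the inhibitory receptor PD-1, was captured. They were chosen from raw UMI counts (unique molecular identifiers, each standing for 1 captured transcript). A barcode with at least 300 detected genes and at most 10% mitochondrial UMIs entered a CD8 gate if it had at least 2 UMIs of Cd3d, Cd3e and Cd3g together and at least 2 of Cd8a and Cd8b1 together. The gate further asked for 0 UMIs of Cd4 and of Foxp3, at most 1 of Trdc, at most 1 of Klra1 and Klra6 together, at most 3 of the C1q genes and at most 1 of Cd79a. Members were the gated cells with 0 UMIs of Pdcd1 and at most 1 UMI of Lef1 and Ccr7 together. They numbered 456 of 10041 filtered cells, of which 214 came from the metformin library and 242 from the control water library. The genes of the gate chose the cells, so their own levels are given only as a description.

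The series asked how tumour hypoxia bears on immunity against brain tumours, with γδ T cells at its centre. C57BL/6 mice carried GL261, a mouse glioma line injected into the brain, and drank water with metformin or control water. On day 20 the dissected tumour region was sorted for CD45hi cells, leukocytes that stain strongly for CD45, and these were made into 1 library per treatment with the 10x Genomics 3′ v3 chemistry. All groups share the strain, the tumour line, the day and the sort. The labels give neither the number, age or sex of the mice behind a library, nor the dose, nor the sort gates. With 1 library per treatment no difference between treatments was tested. The 95% intervals below hold counting error alone and leave out the spread between mice and between cells.

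CD8 T cells kill target cells by releasing granules that hold perforin, which opens the target membrane, and granzymes, proteases that enter through it. After activation they differentiate along several routes. Cells under lasting antigen stimulation gain PD-1 and other inhibitory receptors. Memory and recirculating cells keep Klf2, S1pr1 and Tcf7, while tissue-resident cells gain Cxcr6 and Itgae. Metformin is a diabetes drug known as an inhibitor of complex I of the respiratory chain.

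Members made up 4.65% of the filtered cells of the metformin library (214 of 4606, 4.06 to 5.29%) and 4.45% of those of the control water library (242 of 5435, 3.92 to 5.04%). The ratio of these shares was 1.04 (0.864 to 1.26). Of the CD8-gated cells, 33.4% were members with metformin (214 of 641) and 37.2% with control water (242 of 651), a ratio of 0.898 (0.744 to 1.08). These intervals cover the counting of cells in 2 libraries and give no comparison of the treatments. The gated cells with Pdcd1 numbered 307 with metformin and 286 with control water, and those with at least 2 UMIs of Lef1 and Ccr7 numbered 120 with metformin and 123 with control water.

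Members had a median of 8436 UMIs with metformin and 7398.5 with control water, and their summed UMIs were 1828879 with metformin and 1848547 with control water. The median was higher in Pdcd1-positive cells, at 11337 UMIs with metformin and 9200 with control water, so depth moves with the split by Pdcd1 and its part in the results below was not tested. No barcode was a member in 1 library and present in the other. Summed natural killer, γδ T and B cell markers were low in members. Natural killer genes reached 77.6 CPM (UMIs scaled to 1e+06 summed UMIs of the library's members) with metformin and 94.7 CPM with control water. The γδ T genes reached 104 CPM with metformin and 51.9 CPM with control water, and B cell genes 47.6 CPM with metformin and 79.0 CPM with control water. The gate capped Trdc, Cd79a and the C1q genes, so part of the γδ, B cell and macrophage sums was fixed by the rule. All 6 natural killer markers and all 4 B cell markers had at least 1 UMI in both libraries. Of the 5 γδ markers, Cd163l1 was at 0 with control water, and Tcrg-C2 was seen in 22.4% of members with metformin and 12.8% with control water. Microglia and macrophage markers, all 8 detected, summed to 540 CPM with metformin and 807 CPM with control water, or 439 CPM with metformin and 436 CPM with control water without the richest cell of each library. Of these, Cst3 was seen in 84.1% of members with metformin and 76.4% with control water, and Apoe in 51.4% and 26.0%. Monocyte markers summed to 325 CPM with metformin, where F13a1 was at 0, and 268 CPM with control water. Dendritic markers reached 134 CPM with metformin, where Flt3 was at 0, and 1039 CPM with control water, where 1 cell held 63.1% of them.

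The label of effector T cells was met by Ccl5 and Ly6c2 more than by Gzma. Ccl5, a chemokine gene of effector and memory T cells (chr11:83525778-83530518, minus strand, GRCm38), had 11606 CPM with metformin and 11107 CPM with control water, with a UMI in 97.2% of members with metformin and 93.8% with control water. Ly6c2, which encodes a surface protein of activated and memory CD8 T cells (chr15:75108158-75111970, minus strand), had 1959 CPM with metformin and 1576 CPM with control water, with a UMI in 89.7% of members with metformin and 82.2% with control water. Gzma, which encodes granzyme A (chr13:113093825-113100981, minus strand), had a UMI in only 33.2% of members with metformin and 41.3% with control water. B cells give a background for these shares, and the part of free RNA in their values was not tested. B cells had a median of 5164.5 UMIs with metformin and 5624.5 with control water. In them Ccl5 was at 153 CPM with metformin and 102 CPM with control water and was seen in 30.7% of cells with metformin and 24.2% with control water, Ly6c2 in 16.0% with metformin and 17.1% with control water, and Gzma in 8.49% with metformin and 7.25% with control water. Klrg1 and Cx3cr1, which mark terminal effector cells, were scarce, with 11 UMIs of Klrg1 with metformin and 32 with control water over all members, and 35 UMIs of Cx3cr1 with metformin and 74 with control water. Cxcr6, a chemokine receptor of resident T cells, was at 622 CPM with metformin and 565 CPM with control water. It was seen in 78.0% of members with metformin and 76.4% with control water, and in 1.42% of B cells with metformin and 1.67% with control water. The markers thus describe Ccl5 and Ly6c2 positive, Cxcr6 positive CD8 T cells, of which a minority held Gzma. The deeper Pdcd1-positive cells shared these traits. There Cxcr6 was seen in 92.8% with metformin and 89.9% with control water, and Ccl5 in 95.8% and 96.2%. Ly6c2 was seen there in 86.0% with metformin and 75.9% with control water, and Gzma in 44.0% and 40.6%.

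In some genes, but not all, cells at the edge of the rule differed by degrees. Lag3, another inhibitory receptor gene, had 121 CPM in members, 296 CPM in gated cells with 1 UMI of Pdcd1 and 333 CPM in those with 2 or more in the metformin library. In the control water library the same 3 groups had 126, 310 and 638 CPM. Gzma had 1356, 3383 and 4588 CPM in these groups with metformin. With control water it had 4544, 2657 and 6277 CPM, so it did not rise by degrees there. In the group with 1 UMI of Pdcd1, Gzma was thus higher with metformin. Tox had 37.7, 60.1 and 43.0 CPM with metformin. On the other side, Cxcr6 had 400 CPM in members with 1 UMI of Lef1 and Ccr7 and 155 CPM in cells excluded with 2 UMIs in the metformin library, and 442 CPM in such members and 264 CPM in such excluded cells in the control water library. Klf2 had 360 CPM in those members and 615 CPM in the excluded cells with metformin, and 267 CPM in those members and 450 CPM in the excluded cells with control water. A cell with 0 UMIs of Pdcd1 may still transcribe it, so the boundary is a range and not a type.

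The promoters of Gzma and Gzmb, which were high in the same members, and of Ly6c2, which did not follow Gzma, are shown for the shared sequence they hold. Each window runs from 250 bases before to 50 after the gene start listed in RefSeq on GRCm38.p6. For Gzmb that start lies upstream of the gene position given below from GENCODE, so its window holds no base of the gene as placed there. The windows lie on the minus strand at chr13:113100932-113101231 (Gzma), chr14:56262285-56262584 (Gzmb) and chr15:75111922-75112221 (Ly6c2, the first of its pair of listed starts). Capitals mark the Runx hexamer TGTGGT, or its reverse complement, and in Gzmb also the AP-1 heptamer TGANTCA at offset -58. RUNX3 is a transcription factor of the CD8 lineage.
Gzma: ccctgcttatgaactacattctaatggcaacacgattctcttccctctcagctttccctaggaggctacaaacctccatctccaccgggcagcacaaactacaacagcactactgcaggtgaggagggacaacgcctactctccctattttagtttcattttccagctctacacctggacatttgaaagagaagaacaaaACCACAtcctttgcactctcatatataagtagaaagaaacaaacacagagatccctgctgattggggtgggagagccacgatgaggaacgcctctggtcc
Gzmb: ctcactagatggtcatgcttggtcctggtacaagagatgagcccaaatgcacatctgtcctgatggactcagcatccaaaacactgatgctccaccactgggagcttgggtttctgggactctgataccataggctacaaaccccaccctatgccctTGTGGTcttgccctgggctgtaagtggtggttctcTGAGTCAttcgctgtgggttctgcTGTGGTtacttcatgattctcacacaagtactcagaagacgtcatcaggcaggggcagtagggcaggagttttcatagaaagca
Ly6c2: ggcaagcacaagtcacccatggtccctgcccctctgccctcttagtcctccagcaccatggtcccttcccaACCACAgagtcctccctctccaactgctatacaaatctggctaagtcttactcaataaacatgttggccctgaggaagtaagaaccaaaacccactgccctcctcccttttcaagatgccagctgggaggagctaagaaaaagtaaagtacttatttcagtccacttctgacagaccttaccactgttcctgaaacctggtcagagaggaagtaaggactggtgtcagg
The hexamer stood at offset -50 from the RefSeq start in Gzma, at -93 and -34 in Gzmb and at -179 in Ly6c2. Searched on both strands, it was present in 16.7% of 32544 promoter windows of this length, and the AP-1 heptamer in 7.79%. The T-box letters GGTGTGA and the CRE letters TGACGTCA, searched likewise, had no match in these 3 windows. A match is a description of letters and not a binding site.

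Of the cytotoxic granule genes with at least 50 UMIs and 50 CPM in at least 1 library, Gzma had the ratio farthest from 1. Members held 2480 Gzma UMIs with metformin and 8399 with control water, or 1356 CPM (1303 to 1410) with metformin and 4544 CPM (4447 to 4642) with control water, a ratio of 0.298 (0.285 to 0.312). The ratio was 0.304 without the cell richest in Gzma in each library. Most of the difference in UMIs lay in few cells, but a gap remained outside the richest of them. Without the richest 21 members Gzma had 179 CPM with metformin, and without the richest 24 it had 807 CPM with control water. Members with at least 10 Gzma UMIs numbered 36 of 214 with metformin (16.8%, 12.1 to 22.5%) and 62 of 242 with control water (25.6%, 20.2 to 31.6%), and they held 96.5% of the UMIs with metformin and 98.8% with control water. With each cell thinned to 3000 UMIs, such cells were 21 of 204 with metformin (10.3%, 6.49 to 15.3%) and 50 of 218 with control water (22.9%, 17.5 to 29.1%), and 10 shallower cells with metformin and 24 with control water were left out. Among the Gzma-rich cells the median was 32.5 Gzma UMIs with metformin and 57.5 with control water at the cells' own depth, and 31 with metformin and 28.5 with control water after thinning. The ratio was 0.494 without the 10 deepest members of each library, 0.489 among cells of 5000 to 15000 UMIs and 0.5 where cells with 1 UMI of Pdcd1 were also admitted. In Pdcd1-positive cells Gzma had 4324 CPM with metformin and 5422 CPM with control water, and thinned cells with 10 or more UMIs were 20.3% with metformin and 18.1% with control water.

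Gzmb, the granzyme that activates caspases in the target (chr14:56258838-56262260, minus strand), had 914 CPM with metformin and 1424 CPM with control water, a ratio of 0.642 (0.603 to 0.683). The richest 21 members held 49.8% of its UMIs with metformin and the richest 24 held 65.9% with control water, and without them the libraries had 459 CPM with metformin and 486 CPM with control water. The ratio was 0.854 without the 10 deepest members and 0.838 among cells of 5000 to 15000 UMIs, which is within 1.5-fold. Gzmk, a granzyme of early effector and memory cells, stood level at 193 CPM with metformin and 194 CPM with control water. Prf1, the perforin gene, had 134 CPM with metformin and 119 CPM with control water, and Nkg7, which encodes a granule membrane protein, had 2088 CPM with metformin and 2010 CPM with control water.

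**Figure D1:**
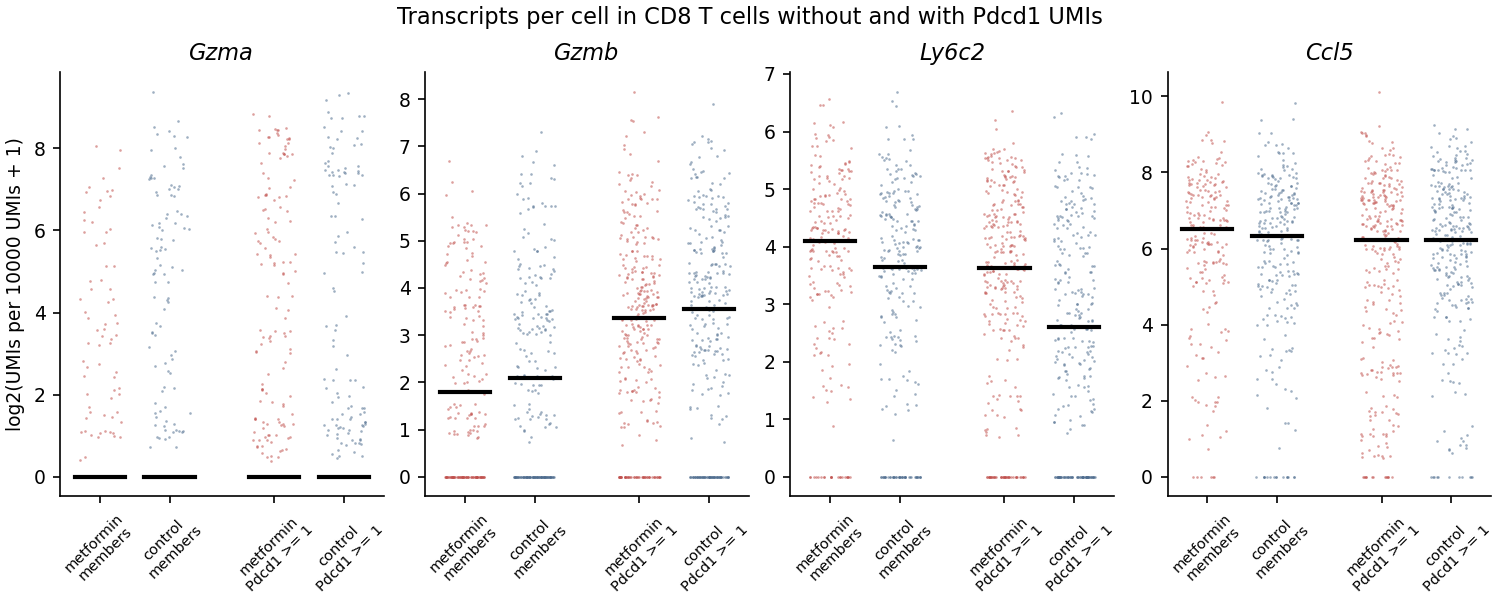
Each point is 1 cell, as log2(UMIs per 10000 UMIs + 1) of Gzma, Gzmb, Ly6c2 and Ccl5 at the cell's own depth, in members and in Pdcd1-positive CD8-gated cells of each library, with the median as a bar. The median of Gzma is 0 in all 4 groups of cells, and more control water members than metformin members form its upper cloud, while Ccl5 is high in nearly all cells.

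Across genes, 2611 had at least 50 UMIs and at least 50 CPM in members of at least 1 library. A gene was called where the ratio of CPM, with 0.5 UMI added to each sum, passed 1.5-fold both with all members and without its richest cell in each library. By this rule 19 genes were called higher with metformin (0.728% of those compared) and 37 lower (1.42%), 2.14% in either direction. The median log2 ratio of all 2611 genes was -0.03. A call is a rule of size and not a test. These percentages are the background for the gene lists below. The same rule called 1.55% of genes higher and 1.55% lower in Pdcd1-positive cells, 3.1% in either direction.

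Of 13 cytotoxic granule genes that could be compared, of 16 listed, 0 were called higher and 3 lower with metformin, with a median log2 ratio of 0.03. The 3 were Gzma, Gzmb and Serpinb9. Serpinb9, which encodes a granzyme B inhibitor that protects the killer cell, had 28.4 CPM with metformin and 53.6 CPM with control water (ratio 0.533, 0.372 to 0.750), and 0.699 at a mitochondrial limit of 5%.

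Among cytokine and chemokine genes, Xcl1 and Ccl3 were called. Of 7 that could be compared, of 14 listed, 2 were called higher and 0 lower with metformin. All 7 log2 ratios were above 0, with a median of 0.51, against 1137 of 2611 above 0 over all genes compared. Xcl1, the chemokine that attracts cross-presenting dendritic cells, had 133 CPM with metformin (243 UMIs) and 71.4 CPM with control water (132 UMIs), a ratio of 1.86 (1.5 to 2.32). Xcl1 was seen in 23.8% of members with metformin and 15.7% with control water, against 1.42% of B cells with metformin and 2.04% with control water. Its ratio was 1.43 at a mitochondrial limit of 5%, 1.49 without the 10 deepest members and 1.36 among cells of 5000 to 15000 UMIs. Ccl3, which encodes an inflammatory chemokine, had 112 CPM with metformin and 67.1 CPM with control water (ratio 1.66, 1.32 to 2.10). Admitting cells with 1 UMI of Pdcd1 brought the Ccl3 ratio to 1.20, and the ratio was 0.523 in Pdcd1-positive cells, at 187 CPM with metformin and 357 CPM with control water. Its neighbour gene Ccl4 had 452 CPM with metformin and 318 CPM with control water (ratio 1.42), and Ifng, the interferon gamma gene, 183 CPM with metformin and 122 CPM with control water (ratio 1.49, 1.26 to 1.78). Neither was called. With cells of 1 Pdcd1 UMI admitted, the Ccl4 ratio was 0.938 and the list's median log2 ratio 0.15, and among cells of 5000 to 15000 UMIs the median was 0.23. Tnf had 41.6 CPM with metformin and 43.8 CPM with control water and was below the limit for comparison.

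Receptor genes shared with natural killer cells gave 1 call. Klrk1, which encodes NKG2D, a receptor for stress-induced ligands, had 428 CPM with metformin and 371 CPM with control water (ratio 1.15). Hcst, which encodes its signalling adaptor DAP10, had 1060 CPM with metformin and 959 CPM with control water. Of 9 genes of this list, 1 was called higher and 0 lower, with a median log2 ratio of 0.14. It was Klre1, at 176 CPM with metformin and 103 CPM with control water (ratio 1.70, 1.42 to 2.04). Klrc1, which encodes NKG2A, had 323 CPM with metformin and 222 CPM with control water (ratio 1.45) and was not called. The rule did not call the adaptor genes Fcer1g, at 56.3 CPM with metformin and 85.5 CPM with control water (ratio 0.660), and Tyrobp, at 80 UMIs with metformin and 111 with control water (ratio 0.730). Over the alternatives their ratios ranged from 0.347 to 1.95 for Fcer1g and from 0.288 to 2.01 for Tyrobp.

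Most genes of circulation and memory were alike in the libraries. Of 21 compared, 1 was called higher and 0 lower with metformin, with a median log2 ratio of -0.02. Il7r, the receptor of the survival cytokine IL-7, had 266 CPM with metformin and 264 CPM with control water. Klf2 had 198 CPM with metformin and 209 CPM with control water, and Tcf7 81.5 CPM with metformin and 86.0 CPM with control water. Of 8 tissue residence genes, 1 was called higher (Xcl1, which both lists hold) and 0 lower, and Itgae, the integrin that binds E-cadherin, had 70.0 CPM with metformin and 68.7 CPM with control water.

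Of 11 inhibitory receptor and exhaustion genes, 1 was called higher and 0 lower, with a median log2 ratio of -0.04. It was Entpd1, which encodes the ectoenzyme CD39, at 51.9 CPM with metformin and 32.5 CPM with control water (ratio 1.60, 1.15 to 2.25). The Entpd1 ratio was 1.37 with cells of 1 Pdcd1 UMI admitted and 1.49 in thinned cells. Lag3 had 121 CPM with metformin and 126 CPM with control water. Havcr2 had 59.1 CPM with metformin and 47.6 CPM with control water (ratio 1.24), and the ratio was 2.27 in thinned cells, where it was seen in 15.7% of members with metformin and 7.80% with control water. Tox had 37.7 CPM with metformin and 40.6 CPM with control water. Tigit held 4 UMIs with metformin and 6 with control water.

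Among heat shock and handling genes only a pair of near-identical genes was called. Hspa1a, an inducible HSP70 chaperone gene, had 845 CPM with metformin and 468 CPM with control water (ratio 1.8, 1.66 to 1.96), and its near-identical neighbour Hspa1b had 482 CPM with metformin and 318 CPM with control water (ratio 1.51). Reads of this pair may be split by the counting. They were the 2 of 12 heat shock and handling genes called higher, with 0 lower and a median log2 ratio of 0.01. Hspa1a had 865 CPM with metformin and 595 CPM with control water in Pdcd1-positive cells and 864 CPM with metformin and 958 CPM with control water in B cells. The Hspa1b ratio fell below 1.5 under 5 alternatives and was 1.29 among cells of 5000 to 15000 UMIs. Of 20 early response genes, 0 were called higher and 1 lower, with a median log2 ratio of -0.23 and 15 of 20 below 0. Over all genes compared, 1474 of 2611 were below 0. Zfp36, whose product degrades cytokine messenger RNAs, had 57.4 CPM with metformin and 120 CPM with control water (ratio 0.481, 0.377 to 0.609), and 0.673 with equal weight per cell.

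The genes nearest to the known action of metformin gave no call. Over all genes compared 2.14% were called, so 0 calls in lists of this size lie near that share. Of 36 complex I genes, 0 were called in either direction, and their median log2 ratio was -0.00, with a range of -0.43 to 0.19. Of 39 genes of complexes II to V, 0 were called, with a median of -0.04. Of 7 AMPK and integrated stress response genes that could be compared, of 28 listed, 0 were called. Most genes of this list were thus too low to be examined. Atf4 had 109 CPM with metformin and 117 CPM with control water. Of 15 hypoxia and glycolysis genes that could be compared, of 34 listed, 0 were called. Their median log2 ratio was -0.17, with 9 below 0, against 1474 of 2611 over all genes compared. Hif1a, the oxygen-regulated transcription factor, had 85.3 CPM with metformin and 124 CPM with control water (ratio 0.689, 0.558 to 0.848). Tpi1, a glycolytic enzyme gene, had 78.2 CPM with metformin and 114 CPM with control water (ratio 0.689). Where cells with a UMI of Lef1 or Ccr7 were left out, both ratios were 0.625. Ldha, the lactate dehydrogenase gene, had 255 CPM with metformin and 323 CPM with control water (ratio 0.791). The metal-binding genes Mt1 and Mt2 were low, with Mt1 at 32.3 CPM with metformin and 26.5 CPM with control water and Mt2 at 7.65 CPM with metformin and 2.70 CPM with control water. The Mt1 ratio of 1.21 was 1.87 without the 10 deepest members and 0.63 in thinned cells.

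Interferon, antigen presentation and survival genes gave few calls. None of 28 type I interferon genes was called, with a median log2 ratio of 0.07, nor of 21 class I and processing genes (0.04), 9 survival genes (-0.07) or 19 S100, annexin and effector state genes (0.08). H2-K1, a classical class I gene, had 3644 CPM with metformin and 3280 CPM with control water. Bcl2, a survival gene, had 260 CPM with metformin and 279 CPM with control water. Of 19 interferon gamma genes, 0 were called higher and 2 lower. They were Irf8, a transcription factor, at 40.5 CPM with metformin and 87.1 CPM with control water, and Cxcl10, a CXCR3 ligand, at 27.9 CPM with metformin and 56.3 CPM with control water. In thinned cells their ratios were 0.727 and 0.858, within 1.5-fold. Outside the interferon lists, Ifitm1 had 606 CPM with metformin and 928 CPM with control water (ratio 0.653) and Ifitm2 80.4 CPM with metformin and 144 CPM with control water (ratio 0.557). Both encode interferon-induced membrane proteins, both were picked after their values were seen, and without the 10 deepest members their ratios were 0.802 and 0.693. Of 16 effector transcription factor genes, 1 was called lower, again Irf8, and 0 higher. Of 13 cell cycle genes, 1 was called higher, Ube2c, and 0 lower.

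Several calls rested on few cells or on a gene seen at like shares in other cells. Ube2c, a mitotic ubiquitin-conjugating enzyme gene, had 53.0 CPM with metformin and 24.3 CPM with control water, and the histone gene Hist1h2ap 60.1 CPM with metformin and 22.2 CPM with control water. Without the 10 deepest members their ratios were 0.32 and 0.515. For Igfbp7, at 50.3 CPM with metformin and 1.62 CPM with control water, 1 metformin cell held 93.5% of the UMIs, and the ratio without the richest cells was 2.63. Cd74, which encodes the invariant chain of class II, had 68.3 CPM with metformin and 536 CPM with control water. There 1 control water cell held 66.2% of the UMIs, and without 3 control water members rich in class II transcripts the Cd74 ratio was 1.25. H2-Aa, H2-Ab1, H2-Eb1 and Il1b likewise turned to ratios above 1 without those 3 cells. Gh, the growth hormone gene, held 1 UMI with metformin and 136 with control water. In the control water library Gh was seen in 22.3% of members, 24.9% of B cells and 24.9% of all filtered cells. There 1 cell held 49.6% of the library's 108123 Gh UMIs. The part of free RNA in the Gh values was not tested.

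The rule of size named 5 other genes on the higher side. Adgre5, which encodes the adhesion receptor CD97, had 150 CPM with metformin and 84.9 CPM with control water. Stim1, the calcium sensor of the endoplasmic reticulum, had 68.3 CPM with metformin and 40.6 CPM with control water. Phlda1 had 86.4 CPM with metformin and 43.3 CPM with control water. Cd86, which encodes a ligand of CD28, had 83.7 CPM with metformin and 55.2 CPM with control water, and Mgst2 had 53.0 CPM with metformin and 33.0 CPM with control water. On the lower side were Kdm6b, a histone demethylase gene (31.7 CPM with metformin and 62.8 CPM with control water), and Rnf149 (29.5 CPM with metformin and 57.3 CPM with control water). In thinned cells the ratios of Stim1, Cd86 and Kdm6b were 1.38, 1.22 and 0.698, and with cells of 1 Pdcd1 UMI admitted those of Phlda1 and Rnf149 were 1.48 and 0.699. The Mgst2 ratio was 1.48 among cells of 5000 to 15000 UMIs. Adgre5 and Klre1 passed 1.5-fold under each of the 17 alternatives computed, with ratios of 1.63 to 1.81 and 1.56 to 1.94. Alternatives that changed only the fold, the UMI filter or the richest-cell condition could not move a ratio.

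**Figure D2:**
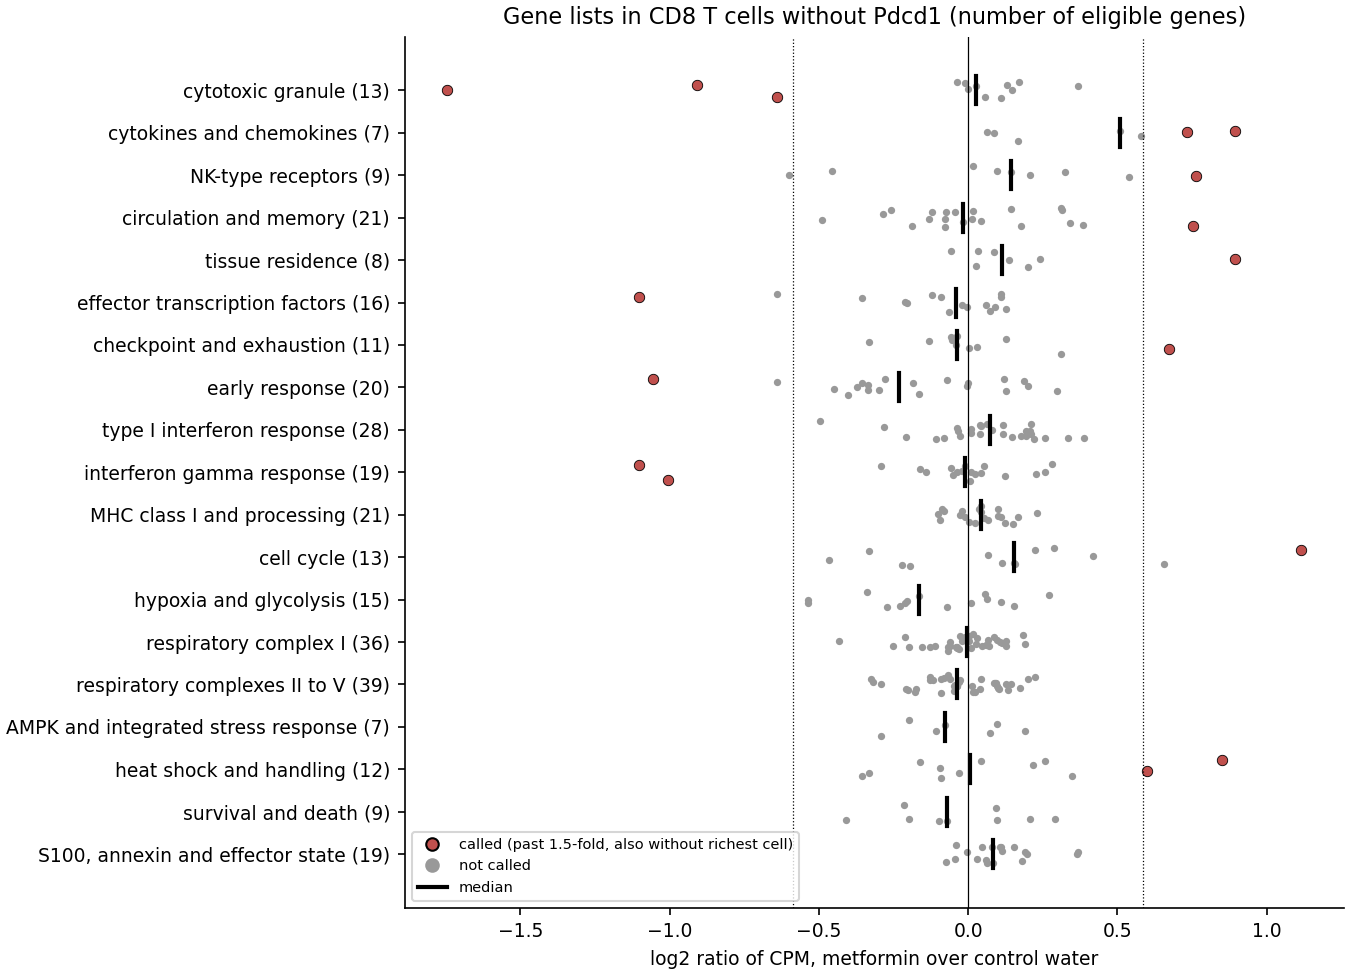
Each point is 1 gene of a list in members, placed by its log2 ratio of CPM, metformin over control water, with called genes in red, list medians as bars and 1.5-fold as dotted lines. The leftmost point is Gzma, the 7 cytokine and chemokine genes all lie above 0, and the respiratory chain genes lie between -0.43 and 0.22.

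Set against Pdcd1-positive CD8-gated cells of the same library, members had more transcript of Klf2, Tcf7 and Il7r and less of inhibitory receptor and cell cycle genes. Since the cells were split by Pdcd1, this is a description. Of 2534 genes that could be compared in both libraries, 27 were called higher in members in both (1.07%) and 77 lower (3.04%), 4.1% in either direction. The lower count holds Pdcd1 itself, whose place the split fixed. Scaling by median-of-ratios size factors gave 43 higher and 64 lower, and totals without ribosomal and mitochondrial genes gave 43 higher and 62 lower. Among cells of 5000 to 15000 UMIs 10 were higher and 39 lower.

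Klf2, the transcription factor that keeps S1pr1 on (chr8:72319033-72321656, plus strand), had 198 CPM in members and 67.2 CPM in Pdcd1-positive cells with metformin, and 209 CPM in members and 64.6 CPM in Pdcd1-positive cells with control water. Tcf7, the transcription factor TCF-1 of memory T cells, had 81.5 CPM in members and 21.5 CPM in Pdcd1-positive cells with metformin and 86.0 CPM in members and 30.7 CPM in Pdcd1-positive cells with control water. Il7r had 266 CPM in members and 171 CPM in Pdcd1-positive cells with metformin and 264 CPM in members and 154 CPM in Pdcd1-positive cells with control water. Of 18 circulation and memory genes, these 3 were called higher and 0 lower. The rule of size also named Emb, Slfn5, Txk, a T cell kinase gene, Ssh2, Slco3a1, Gramd3, Zbtb20 and Tespa1, with ratios of 1.74 to 3.19. S1pr1, with 61.8 CPM in members and 14.2 CPM in Pdcd1-positive cells with metformin and 48.7 CPM in members and 13.5 CPM in Pdcd1-positive cells with control water, was below the level needed for a call in both.

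Lower in members were 5 of 13 inhibitory receptor and exhaustion genes, 9 of 15 cell cycle genes, 5 of 15 hypoxia and glycolysis genes and 5 of 20 S100, annexin and effector state genes, with 0 higher in each list. The first 5 were Lag3, Havcr2, Ctla4, Tnfrsf9 and Rgs16, and the 5 of hypoxia and glycolysis were the glycolytic genes Ldha, Pgk1, Pkm, Tpi1 and Gapdh. Lag3 had 121 CPM in members and 325 CPM in Pdcd1-positive cells with metformin, and 126 CPM in members and 560 CPM in Pdcd1-positive cells with control water. Ctla4 had 39.9 CPM in members and 104 CPM in Pdcd1-positive cells with metformin and 33.5 CPM in members and 115 CPM in Pdcd1-positive cells with control water. Tnfrsf9, which encodes the costimulatory receptor 4-1BB, had 14.8 CPM in members and 65.7 CPM in Pdcd1-positive cells with metformin, and 34.6 CPM in members and 148 CPM in Pdcd1-positive cells with control water. Mt1 had 32.3 CPM in members and 156 CPM in Pdcd1-positive cells with metformin and 26.5 CPM in members and 117 CPM in Pdcd1-positive cells with control water. Mki67, a gene of cycling cells, had 56.9 CPM in members and 141 CPM in Pdcd1-positive cells with metformin and 48.7 CPM in members and 98.6 CPM in Pdcd1-positive cells with control water. Ldha had 255 CPM in members and 461 CPM in Pdcd1-positive cells with metformin, and 323 CPM in members and 499 CPM in Pdcd1-positive cells with control water. Of 12 cytotoxic granule genes only Gzmb was called lower in both, with ratios of 0.361 with metformin and 0.530 with control water. The Gzma ratio was 0.314 with metformin and 0.838 with control water, and the difference of these ratios was not tested. Of 7 cytokine and chemokine genes, Ifng, Ccl3 and Ccl4 were lower, and 0 of 36 complex I genes and 0 of 39 genes of complexes II to V were called. Ly6c2, a label gene that did not enter the rule, as Gzma and Ccl5 did not, had 1959 CPM in members and 1500 CPM in Pdcd1-positive cells with metformin, and 1576 CPM in members and 1069 CPM in Pdcd1-positive cells with control water, ratios of 1.31 with metformin and 1.47 with control water.

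**Figure D3:**
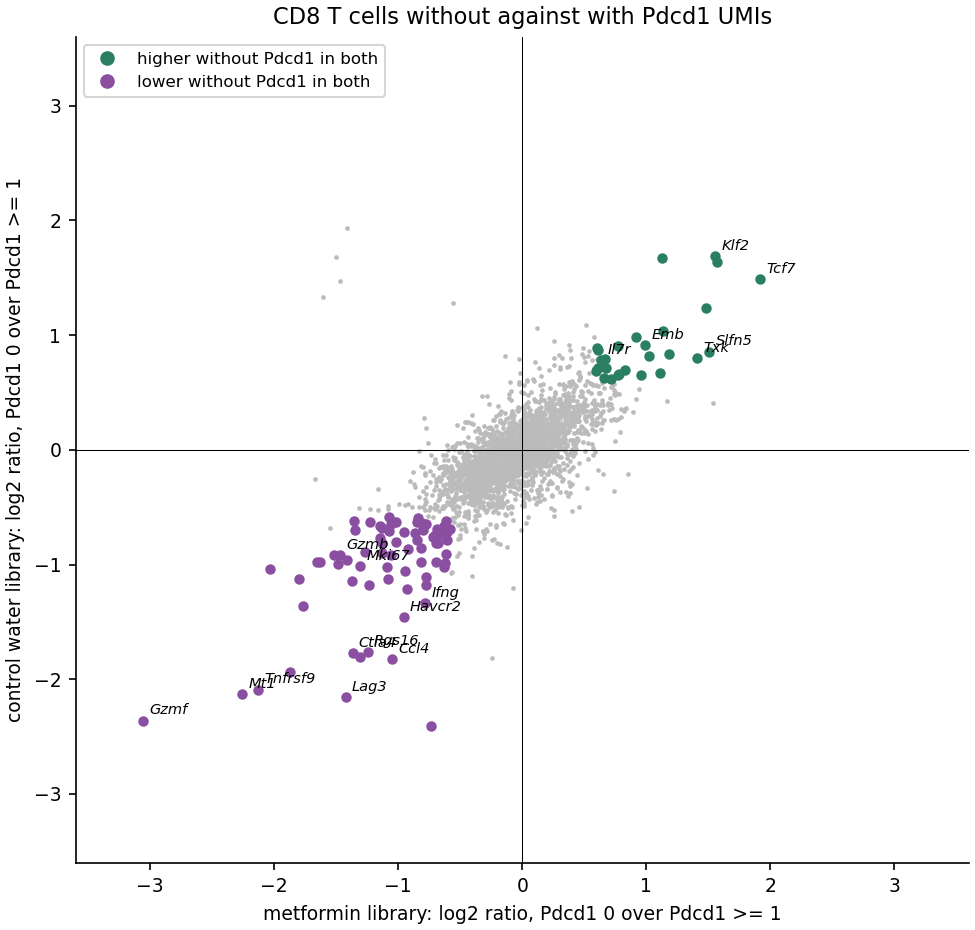
Each point is 1 gene, with its log2 ratio of CPM in members (Pdcd1 at 0 UMIs) over Pdcd1-positive cells in the metformin library on the horizontal axis and in the control water library on the vertical axis, and with genes called in both in green and purple. Klf2 and Tcf7 stand at the upper right, Gzmf, Mt1, Tnfrsf9 and Lag3 at the lower left, and 1 gene lies outside the axes.

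Set against CD8-gated cells with at least 2 UMIs of Lef1 or Ccr7, which also set the rule, 113 of 2442 genes were called higher in members in both libraries (4.63%) and 44 lower (1.8%), 6.43% in either direction. The lower count holds Lef1, Ccr7 and Pdcd1, whose place the rule fixed. Cxcr6 had 622 CPM in members and 163 CPM in those cells with metformin, and 565 CPM in members and 163 CPM in those cells with control water. Gzma had 1356 CPM in members and 388 CPM in those cells with metformin, and 4544 CPM in members and 179 CPM in those cells with control water. Members over those cells, the Prf1 ratio was 3.22 with metformin and 2.95 with control water, the Ccl5 ratio 2.76 with metformin and 2.59 with control water, and the Ly6c2 ratio 1.78 with metformin and 1.64 with control water. Klf2 had 198 CPM in members and 532 CPM in those cells with metformin, and 209 CPM in members and 484 CPM in those cells with control water. The Tcf7 ratio was 0.337 with metformin and 0.31 with control water. Klf2 and Tcf7 in members thus stood between the Lef1 or Ccr7 cells above and the Pdcd1-positive cells below in both libraries, while Il7r was within 1.5-fold of the Lef1 or Ccr7 cells.

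The members themselves varied in some, but not all, genes of recirculating and resident cells. After thinning to 3000 UMIs, 60 of 204 members with metformin (29.4%) and 66 of 218 with control water (30.3%) had at least 1 UMI of S1pr1 or Tcf7. Those genes set the split, which was made after their values were known. In the metformin library Cxcr6 was seen in 30% of cells with such a UMI and 77.1% of cells without, Gzmb in 28.3% with and 60.4% without, Itgae in 1.67% with and 16.7% without, and Klf2 in 58.3% with and 16.0% without. In the control water library Cxcr6 was seen in 47.0% of cells with such a UMI and 72.4% of cells without, Gzmb in 25.8% with and 65.1% without, Itgae in 4.55% with and 21.1% without, and Klf2 in 56.1% with and 19.7% without. Gzma and Gzmk followed the same order in both libraries. Cd8a and Cd8b1 did as well, with Cd8a seen in 66.7% of cells with such a UMI and 91.0% of cells without in the metformin library, and in 72.7% with and 89.5% without in the control water library. Ly6c2 did not separate the cells so split, at 88.3% of cells with such a UMI and 87.5% of cells without in the metformin library, and 81.8% with and 75% without in the control water library. Ccl5 was at 95% with and 93.8% without in the metformin library, and 89.4% with and 94.1% without in the control water library. Il7r differed in direction, at 35% with and 38.9% without in the metformin library, and 42.4% with and 38.2% without in the control water library. In thinned B cells Tcf7 was seen in 0.962% with metformin and 0.778% with control water. Klf2 was seen there in 72.1% with metformin and 64.0% with control water, and S1pr1 in 35.1% and 30.0%. In thinned Pdcd1-positive cells Klf2 was seen in 15.1% with metformin and 14.2% with control water, and S1pr1 in 3.61% and 4.27%. The B cell shares of Klf2 and S1pr1 may hold transcripts of the B cells themselves, so they do not measure free RNA. The part of free RNA in the split was not tested.

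**Figure D4:**
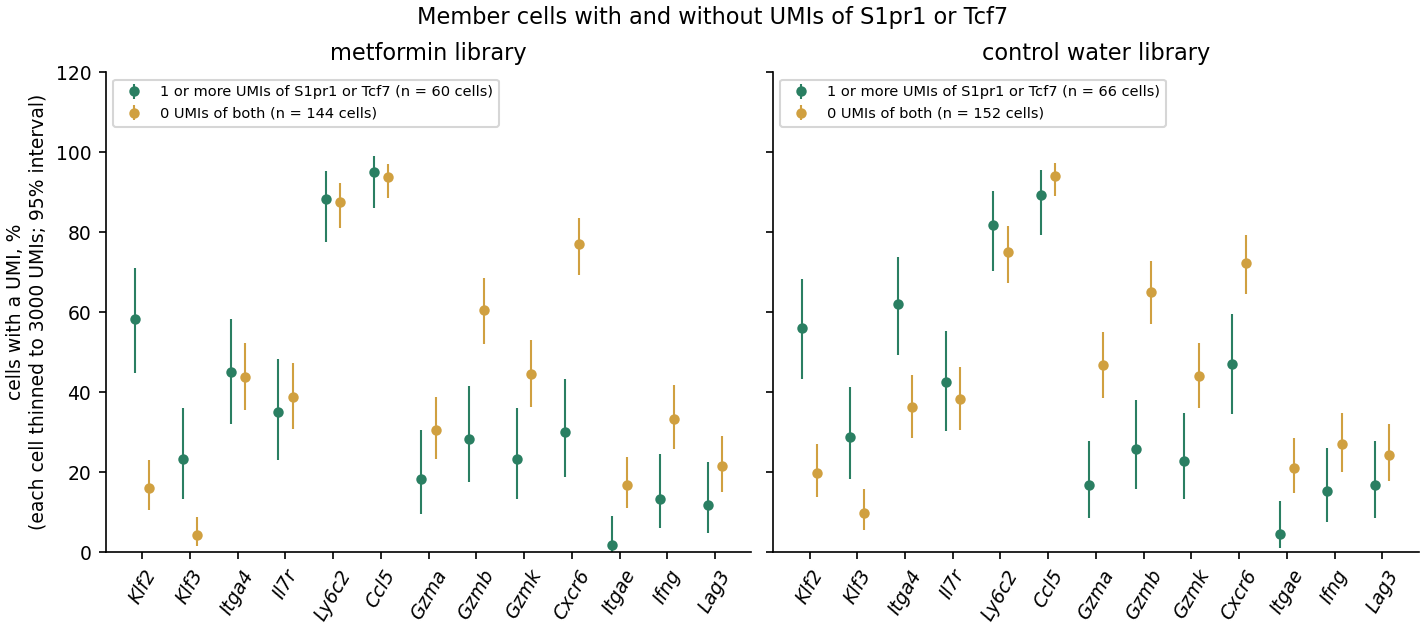
Share of thinned members with a UMI of each gene, with exact 95% binomial intervals, in cells with and without UMIs of S1pr1 or Tcf7, for the metformin library (left) and the control water library (right). Cxcr6, Gzmb and Gzmk are seen in fewer of the cells with such a UMI in both libraries, and Ly6c2 in about as many.

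Across thinned members, 2971 genes were ranked by how their UMIs followed those of Ly6c2, as Spearman rho within each library over 204 metformin and 218 control water cells. The highest was Ly6a, the Sca-1 gene of the same family, with a rho of 0.41 with metformin and 0.31 with control water. Shisa5, Ms4a4b, Klrk1, Plac8 and Ms4a6b came next, with rho between 0.19 and 0.28 in both libraries. The most unlike genes, Tspan13, Eef1b2, Tob2, Pgk1, Eif4e and Brd1, had weak values between -0.12 and -0.23. Ly6c2 and Gzma were nearly unrelated, at 0.08 with metformin and -0.01 with control water. Gzma, looked at after its values were seen, was most like Ifitm1 (0.41 with metformin and 0.45 with control water) and Gzmb (0.33 with metformin and 0.60 with control water), followed by Ifitm2, Gzmk and Cxcr6, and was lower where Klf2 (-0.19 with metformin and -0.17 with control water) and Tcf7 (-0.15 with metformin and -0.26 with control water) were present. The cells share their library and its free RNA, so these values are descriptions. Ly6c1, a close relative of Ly6c2, held 16 UMIs with metformin and 2 with control water, and reads of the pair may be split by the counting.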

How the data were processed

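Single-cell RNA was measured in 2 libraries, 1 per treatment. Per the file headers, the deposited values are raw counts of UMIs for 31053 features in each barcode, written by software version 3.0.0. Per the submitters' processing notes, Cell Ranger, Seurat and the build mm10 were used. The aligner and annotation are not given in the sources used here. Deposited barcodes numbered 5473 with metformin and 6174 with control water, and the limits of 300 genes and 10% mitochondrial UMIs left 4606 and 5435.

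The members and gene lists were chosen with earlier results of these data known. UMIs were summed over cells per library and scaled to a total of 1e+06 (CPM). CPM carry exact Poisson intervals, ratios exact conditional intervals and shares Clopper-Pearson intervals, which treat UMIs as independent. Groups of 1 library allow no test. Genes were named as follows: a set always given, the 12 called genes farthest from 1 in each direction between treatments, up to 4 per list, 10 per direction against Pdcd1-positive cells, 6 per direction by likeness to Ly6c2, and 5 receptor segments per family and library. The 1 gene called in the circulation and memory list is not reported here. Mitochondrial, ribosomal, haemoglobin, immunoglobulin, receptor segment, sex-linked and predicted genes were left out of all but the first and last of these. No doublet caller was used in the main values. Scrublet (expected rate 5%) in scanpy 1.11.5 served as an alternative and marked 37 (0.803%) and 62 (1.14%) cells, 0 and 1 of them members. Background B cells had at least 3 UMIs of Cd79a and Cd79b, 0 of the Cd3 genes and at most 3 of the C1q genes, 212 with metformin and 538 with control water. Gene positions are from GENCODE M21 on GRCm38. Python 3.11.15, numpy 2.4.6 and scipy 1.17.1 were used. The code of the calling rule was run on simulated Poisson counts with known folds. Those counts hold no spread between mice, and between cells only that of depth, so they do not test the calls made here.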

Additional observations from a re-analysis of the deposited data

How the results depend on the processing

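No paired analysis was possible because each treatment is 1 library, and for the same reason no replicate could be left out. The share ratios of members stayed within their counting intervals under each alternative, from 0.953 to 1.13 of filtered cells and from 0.823 to 0.952 of CD8-gated cells. Counts of called genes moved most. Higher and lower with metformin were 34 and 56 at a mitochondrial limit of 5%, 56 and 113 in cells thinned to 3000 UMIs, 3 and 10 at a fold of 2, and 496 and 768 with a filter of 10 UMIs only, and 29 were higher with equal weight per cell. Of the 19 and 37 genes first called, 14 and 19 were called after thinning. Against Pdcd1-positive cells the higher and lower counts were 239 and 397 with 10 UMIs only, 6 and 17 at a fold of 2, and 10 and 39 in cells of 5000 to 15000 UMIs. The higher count was 17 at a mitochondrial limit of 5%, 46 without the 10 deepest members, and 43 under both other scalings. The ratio of Hist1h2ap was 0.515 and of Ube2c 0.32 without the 10 deepest members, and 0.433 and 0.218 in cells of 5000 to 15000 UMIs. Without the class II cells the ratios were 1.25 for Cd74, 1.06 for H2-Aa, 1.18 for H2-Ab1, 1.19 for H2-Eb1 and 1.72 for Il1b. In cells of 5000 to 15000 UMIs they were 1.30 for Cd74, 1.44 for H2-Ab1, 1.21 for H2-Eb1 and 1.83 for Il1b. The cause of these moves was not tested. The depth window and the removal of class II cells were chosen after seeing the data. Of the ratios of named genes, 2131 values kept within the limit, 168 moved and 13 reversed, and of list medians 302 kept and 21 moved. Both kept counts include alternatives that changed only the call, under which these values could not move. The ratios were also fixed under the filter of 10 UMIs only. Genes under 50 UMIs are not resolved at this depth.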

Other observations

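T cell receptor segments were seen in few members. The chemistry reads the 3′ end, and its part in this was not tested. A Trbv segment was seen in 42 of 214 members with metformin and 39 of 242 with control water, and a Trav segment in 50 with metformin and 49 with control water. Trav3-3 was the Trav segment seen in most metformin members, in 16 cells against 5 with control water, and in 44 of 307 Pdcd1-positive cells with metformin and 13 of 286 with control water. Trav5-4 was seen in 0 members with metformin and 8 with control water, and in 2 Pdcd1-positive cells with metformin and 41 with control water. Trbv16 was seen in 10 members with metformin and 2 with control water, Trbv12-2 in 8 with metformin and 7 with control water, and Trbv2 in 4 with metformin and 9 with control water. With 1 library per treatment such values cannot be told apart from differences between mice, and whether cells share a clone was not tested.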
